A study of Mus musculus with 11 samples.

Results

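The interferon-stimulated genes examined here are a list of 45 gene symbols whose products carry out or regulate the cellular response to interferon, taken without the guanylate-binding protein, IRF and MHC families. They were found by their symbol among the 35814 symbols of the count table, which held 44 of the 45, and *Ifitm2* had no row. They were measured by bulk RNA sequencing of CD4+ T cells from mouse kidney on day 2 after ischemia reperfusion injury (IRI), which was induced by clamping for 45 min in male C57BL/6 mice aged 8 to 12 weeks. The comparison groups were CD4cre (3 libraries), CD4IKK1 (5 libraries) and CD4NIK (3 libraries), and no sham-operated group was analysed here. All mice, controls included, carried a Cre recombinase driven by the CD4 promoter. Those labelled CD4IKK1 also carried a floxed *Chuk* gene, which encodes IKK1, and those labelled CD4NIK a floxed *Map3k14* gene, which encodes NIK. The title of each control library names it CD4creControl, whereas its genotype field says WT. The labels call the libraries of a group biological replicates, whose numbers match the mice per group in the study, and do not link replicate numbers across groups.

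Type I interferons bind the receptor formed by IFNAR1 and IFNAR2, which activates the kinases JAK1 and TYK2, and a complex named ISGF3, which includes STAT2 and IRF9, enters the nucleus and binds the interferon-stimulated response element in the promoters of its target genes. Type II interferon, which is the product of *Ifng* and is secreted by activated T cells, acts through the receptor formed by IFNGR1 and IFNGR2 and on genes with a gamma-activated site. The products of the target genes sense foreign nucleic acids, stop translation, degrade RNA, hold back virus particles at membranes or regulate the response itself. T cells express many of them at a basal level and raise them when they meet interferon.

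Promoter sequences of 34 of the 45 genes were held in the RefSeq table of windows from 250 bases before to 50 bases after each gene start (GRCm38.p6). The core of the response element was searched on both strands as GAAANNGAAA, and 18 of these 34 genes (52.9%) held it in at least 1 window, against 3.99% of all 27025 genes of the table. The gamma-activated site, searched as TTCNNNGAA, was in 8 of the 34 genes (23.5%), against 9.55% of all genes. In *Bst2* and *Ifitm3* matches of both motifs shared bases. A match describes these letters only. The following stretches, written 5' to 3' along the gene's strand with the response element core or its reverse complement in capitals, are shown because they belong to genes whose levels are described below and show how the motif is placed. The last 40 bases of 37 of the 42 windows occurred in a GENCODE transcript of the gene. Those of the *Ifit3b* and *Ifi206* windows did not, so that their gene starts, and the positions counted from them, are uncertain. Positions are counted from the gene start, -1 being the base before it, and sites in the promoter windows are on GRCm38.p6, whereas whole-gene coordinates given further on are from the GENCODE annotation of GRCm39.
Isg15, chr4:156200860-156200911 (- strand), bases -93 to -42: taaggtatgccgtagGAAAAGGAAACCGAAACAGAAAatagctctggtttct
Ifit1, chr19:34640770-34640828 (+ strand), bases -119 to -61: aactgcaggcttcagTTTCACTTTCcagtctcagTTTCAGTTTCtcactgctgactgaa
Ifit3, chr19:34583358-34583431 (+ strand), bases -171 to -98: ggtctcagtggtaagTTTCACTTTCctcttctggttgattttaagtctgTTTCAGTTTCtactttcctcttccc
Ifit3b, chr19:34607754-34607827 (+ strand), bases -203 to -130: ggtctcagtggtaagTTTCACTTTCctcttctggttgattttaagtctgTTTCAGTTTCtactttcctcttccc
Oas1a, chr5:120907526-120907560 (- strand), bases -35 to -1: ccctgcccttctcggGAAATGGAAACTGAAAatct
Oas1g, chr5:120887614-120887646 (- strand), bases -33 to -1: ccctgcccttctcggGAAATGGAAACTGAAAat
Bst2, chr8:71537572-71537617 (- strand), bases -145 to -100: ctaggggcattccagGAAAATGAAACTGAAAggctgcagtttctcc
Ifi206, chr1:173491334-173491373 (- strand), bases -55 to -16: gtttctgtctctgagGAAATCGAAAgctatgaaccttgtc
Phf11b, chr14:59341356-59341395 (- strand), bases -65 to -26: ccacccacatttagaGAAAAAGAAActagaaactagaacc
Rsad2, chr12:26456548-26456587 (- strand), bases -135 to -96: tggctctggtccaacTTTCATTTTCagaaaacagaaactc
Stat2, chr10:128270261-128270300 (+ strand), bases -237 to -198: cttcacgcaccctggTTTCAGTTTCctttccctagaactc

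*Isg15* held 3 overlapping copies of the core within its stretch, and *Bst2*, *Oas1a* and *Oas1g* held 2 overlapping copies. *Ifit1*, *Ifit3* and *Ifit3b* held 2 separate copies in reverse orientation. The 74-base stretches of *Ifit3* and *Ifit3b* were identical. Windows were also slid along each other without gaps, and the shift with the most identical bases was kept. The windows of *Ifit3* and *Ifit3b* then had 75.0% identical bases over 268 bases, and those of *Oas1a* and *Oas1g* 69.5% over 298 bases. Inserted or deleted bases lower such values, so the 2 pairs cannot be ranked by them. No core was found in the windows of *Sp100*, *Samd9l*, *Xaf1*, *Herc6*, *Isg20*, *Oasl1*, *Oasl2*, *Ifi209*, *Ifi35*, *Ifi44*, *Ifit2*, *Trim25*, *Dtx3l*, *Cmpk2*, *Adar* and *Ifitm1*.

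**Figure D1:**
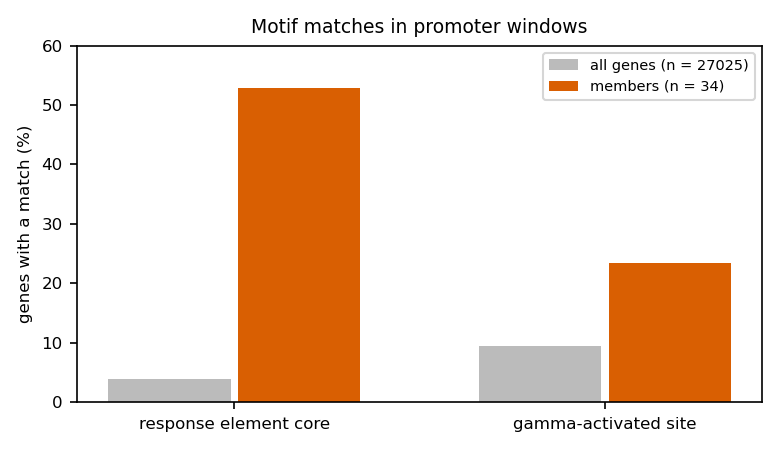
The bars give the percent of genes with at least 1 match of the response element core or of the gamma-activated site in a 300-base promoter window (y axis, linear from 0), for all 27025 genes of the table (grey) and for the 34 interferon-stimulated genes with a window (orange). The core was matched in 52.9% of the interferon-stimulated genes and in 3.99% of all genes, the gamma-activated site in 23.5% and 9.55%.

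The libraries held from 15751632 to 25737046 estimated counts, so that 3 counts, used as the floor of detection, correspond to 0.115 to 0.211 CPM, the unit of level used here (counts scaled to a common library size with TMM factors). This floor covers counting error only. The transcript of a group's targeted gene did not separate that group from CD4cre. *Chuk* had 22.0 ± 9.67 CPM (SD, n = 3) in CD4cre and 20.4 ± 4.55 CPM (n = 5) in CD4IKK1. *Map3k14* had 17.9 ± 2.78 CPM (n = 3) in CD4cre and 22.5 ± 8.98 CPM (n = 3) in CD4NIK. It was lowest in CD4IKK1 (5.97 ± 2.81 CPM, n = 5), where every library lay below all libraries of both other groups. For CD4IKK1 against CD4NIK, edgeR called *Map3k14* lower (log2 fold change -1.91, FDR = 0.00418). Against CD4cre, DESeq2 called it lower in CD4IKK1 (-1.59, adjusted p = 0.0155) and edgeR did not (FDR = 0.148). The deleted exons could not be seen in counts per gene, so all groups are named by their labels. The libraries differed in how much T cell RNA they held. Summed over 16 T cell markers, the level was 1774 to 3206 CPM in CD4cre, 219 to 1599 CPM in CD4IKK1 and 8671 to 12657 CPM in CD4NIK, and 13 of the 16 markers were called higher in CD4NIK than in CD4cre and 15 of 16 lower in CD4IKK1 than in CD4NIK. The T cell receptor constant genes had 41 counts in CD4IKK1 replicate 1 and 868 in replicate 2, against 5277 to 111648 in the other libraries, and *Cd3g* and *Cd247* were at 0 in at least 1 CD4IKK1 library. Of 14 myeloid markers tested, 3 were called higher in CD4NIK than in CD4cre and 9 lower in CD4IKK1 than in CD4NIK, and of 6 markers of plasmacytoid dendritic cells, which are strong producers of type I interferon, 2 and 3 were called in these directions. All 3 NK cell markers tested were called lower in CD4IKK1 than in CD4NIK (median log2 fold change -4.81), as were 2 of 4 B cell markers (median -4.27) and 3 of 9 kidney tubule markers. In CD4NIK against CD4cre none of 3 NK cell, 1 of 3 B cell and none of 8 kidney tubule markers was called higher, although all 3 NK cell markers had higher values. Their summed levels in CD4cre, CD4IKK1 and CD4NIK were 3.60 to 22.5, 0.448 to 5.21 and 19.3 to 87.7 CPM for NK cells, 67.4 to 139.9, 4.10 to 25.6 and 195.5 to 662 CPM for B cells, and 18.7 to 80.4, 5.12 to 11.2 and 13.7 to 112 CPM for kidney tubule. The part of these cell types in the results below was not tested. The markers not called did not all go the same way: 9 of the 14 myeloid and 3 of the 6 plasmacytoid dendritic cell markers had lower values in CD4NIK than in CD4cre. Of the latter list, mean levels in CD4cre, CD4IKK1 and CD4NIK were 6.84, 7.22 and 5.74 CPM for *Siglech*. They were 2.53, 3.11 and 2.10 CPM for *Cox6a2* and 145, 1.63 and 72.2 CPM for *Klk1*. *Ccr9* had 7.02, 2.95 and 32.3 CPM, *Runx2* 10.4, 6.76 and 45.4 CPM and *Spib* 0.481, 0.372 and 1.71 CPM. Between CD4IKK1 and CD4cre no marker was called, although 15 of 16 T cell, 13 of 14 myeloid and all 8 kidney tubule markers had lower values in CD4IKK1. The 8 neuronal markers, which are not expected in sorted T cells, summed to 2286 to 2713 CPM in CD4cre, 2835 to 3268 CPM in CD4IKK1 and 735 to 1536 CPM in CD4NIK. In bulk RNA, fewer T cells and less of a transcript per T cell cannot be told apart.

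The mean log2 CPM of the 44 genes, used as an expression score for each library, was 2.24, 1.95 and 1.53 in CD4cre, -0.32, 0.04, 1.44, 0.88 and 0.92 in CD4IKK1 and 3.78, 4.45 and 4.29 in CD4NIK, in the order of the replicate numbers, which is kept for all values below. The groups did not overlap in this score: every CD4NIK library was above every CD4cre library, and every CD4cre library was above every CD4IKK1 library. With upper-quartile factors CD4IKK1 replicate 3 (1.52) was level with CD4cre replicate 3 (1.52) and just above it, so that CD4cre and CD4IKK1 then overlapped. The group means were 1.90 ± 0.36 (SD, n = 3), 0.59 ± 0.72 (n = 5) and 4.17 ± 0.35 (n = 3). The gap between CD4cre replicate 3 and CD4IKK1 replicate 3 was smaller than the SD of either group. The T cell marker score had the same order, with 6.67, 6.24 and 5.95 in CD4cre, 0.02, 2.42, 5.50, 4.48 and 4.72 in CD4IKK1 and 7.89, 8.48 and 8.44 in CD4NIK. Subtracting it left -4.43, -4.29 and -4.43 in CD4cre, -0.35, -2.39, -4.05, -3.61 and -3.80 in CD4IKK1 and -4.11, -4.03 and -4.15 in CD4NIK. Relative to T cell markers, the interferon-stimulated genes thus lay in a narrow range in CD4cre and CD4NIK, and all 5 CD4IKK1 libraries lay above the CD4cre libraries, with replicates 1 and 2 farthest away. The CD4NIK libraries also lay above those of CD4cre, by less than the range of CD4IKK1. These scores are means of logarithms, in which genes near 0 counts are held up by the prior count of 2.

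**Figure D2:**
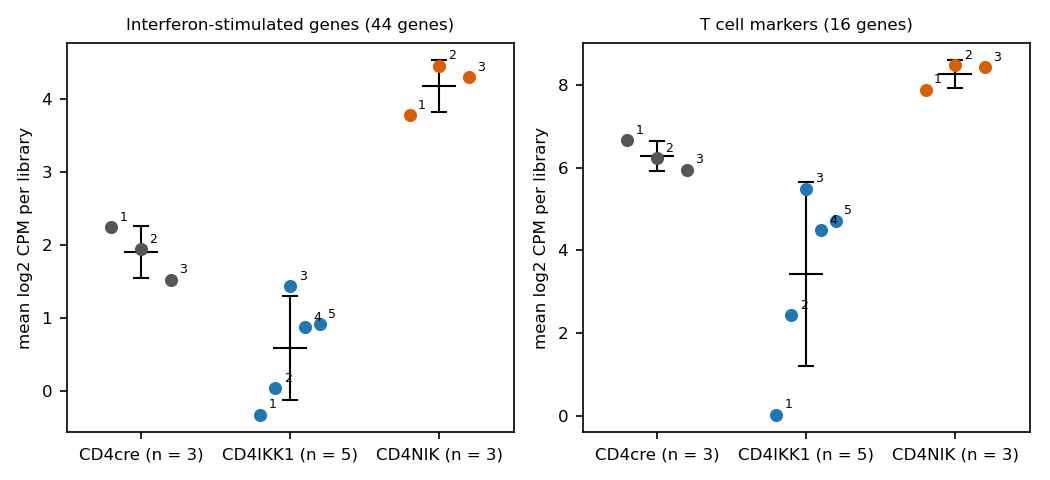
Each point is 1 library, numbered by replicate, with the mean log2 CPM of the 44 interferon-stimulated genes (left) or of the 16 T cell markers (right) on the y axis and the group on the x axis; bars give the group mean and SD. In both panels the CD4NIK libraries are at the top, at 3.78 to 4.45 on the left and 7.89 to 8.48 on the right, and CD4IKK1 replicates 1 and 2 at the bottom.

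To determine whether interferon-stimulated genes differed between the library groups labelled CD4NIK and CD4cre, edgeR's quasi-likelihood test was run on all genes that passed the expression filter, and a gene was called when its Benjamini-Hochberg adjusted p (FDR) was under 0.05 and its difference more than 2-fold. Of 43 interferon-stimulated genes tested, 25 (58.1%) were called higher in CD4NIK and none lower, whereas 10.4% of all 15209 genes tested were called higher. *Ifi206* rose from 6.14 ± 0.931 CPM (SD, n = 3) in CD4cre to 86.4 ± 19.1 CPM (n = 3), *Phf11b* from 12.5 ± 5.07 to 139 ± 24.98 CPM, *Sp100*, a nuclear body protein, from 30.1 ± 12.5 to 238 ± 44.8 CPM, and *Samd9l*, an antiproliferative and antiviral factor, from 7.26 ± 2.13 to 46.6 ± 8.48 CPM. In the same comparison 13 of 16 T cell markers were called higher, and their part in these calls was examined only by the covariate given below. By the unadjusted p of the same test, 31 of the 43 were under 0.05, all of them higher, against 19.0% of all genes. All 43 had a log2 fold change above 0, with a median of 2.21 against -0.02 over all genes, and in 30 of them (69.8%) every CD4NIK library lay above every CD4cre library, against 23.0% of all genes. DESeq2 called 29 of the 44 genes for which it gave an adjusted p, against 13.3% of all genes called higher by it.

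The number of calls depended on the libraries in the fit. It was 11 without CD4NIK replicate 3, 13 without CD4NIK replicate 2, 16 without CD4cre replicate 2 and 9 with the CD4IKK1 libraries added to the estimate of the spread. The share of all genes called higher fell as well, from 10.4% to 3.80%, 5.33%, 5.56% and 5.23% in the same order. Among the interferon-stimulated genes, 10 (*Ifi206*, *Ifit3*, *Isg20*, *Mx1*, *Oas1a*, *Phf11b*, *Rtp4*, *Samd9l*, *Sp100* and *Xaf1*) were called with each of the 6 libraries left out in turn. *Herc6*, *Ifi204*, *Oasl2* and *Parp14* were called in only 1 of these 6 fits, *Ifit1*, *Isg15* and *Rsad2* in 2, *Bst2*, *Ifi203* and *Trim30a* in 3, *Parp9* and *Zbp1* in 4, and *Ifi27l2a*, *Ifit2* and *Ifit3b* in 5. With the T cell marker score as a covariate over all 11 libraries, 6 genes were called higher (*Ifit2*, *Ifit3b*, *Mx1*, *Ifi203*, *Xaf1* and *Rtp4*), against 2.94% of all genes, and the median log2 fold change was 1.18; the groups did not overlap in that score, so group and score cannot be told apart.

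Between the groups labelled as mutant, 33 of 43 interferon-stimulated genes tested (76.7%) were called lower in CD4IKK1 than in CD4NIK and none higher, in a fit of all 11 libraries, against 18.5% of all 16546 genes called lower. *Sp100* fell from 238 ± 44.8 CPM (SD, n = 3) in CD4NIK to 6.51 ± 6.24 CPM (n = 5), *Trim30a* from 107 ± 29.6 to 3.73 ± 3.52 CPM, *Xaf1*, a factor that promotes apoptosis, from 79.4 ± 26.6 to 4.19 ± 2.81 CPM, and *Ifit3* from 63.5 ± 14.9 to 2.82 ± 1.87 CPM. In the same comparison 15 of 16 T cell markers were called lower. The log2 fold change was below 0 in 42 of them, with a median of -3.10 (-3.02 with *Usp18* at its bound) against 0.06 over all genes. In 31 of the 43 genes (72.1%) every CD4IKK1 library was below every CD4NIK library, against 24.6% of all genes. Of the 33 called genes, 26 were called with each of the 11 libraries left out in turn. The other 7 lost their call in part of these fits: *Isg15* was called in 3 of the 11, *Oas3* and *Oasl1* in 5, *Eif2ak2* and *Oasl2* in 9, and *Rsad2* and *Usp18* in 10, the last 2 being lost without CD4NIK replicate 2. Without CD4IKK1 replicates 1 and 2, 28 genes were called lower, against 17.1% of all genes, and the median was -3.15. With the T cell marker score as a covariate, edgeR called 0 genes, the smallest FDR was 0.0528 and the median was -1.48, while 1.57% of all genes were called lower. At an unadjusted p under 0.05, 9 of the 43 then had lower values and none a higher one, against 9.74% of all genes lower at that p. This comparison shares its CD4NIK libraries with the one above.

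Between CD4IKK1 and CD4cre, no interferon-stimulated gene was called among 39 tested, and no gene (0%) was called by edgeR among all 15653, of which 2592 had an unadjusted p under 0.05. In simulated data for this comparison, the test recovered 36% of 200 genes given a log2 fold change of 2 in size. The lack of a call thus does not show that a gene was unchanged. The smallest FDR of the 39 genes was 0.154, reached by *Stat2*, a component of ISGF3. The log2 fold change was below 0 in 32 of the 39, with a median of -1.06 against 0.02 over all genes. At an unadjusted p under 0.05, 9 genes had lower values (*Stat2*, *Zbp1*, *Ifi209*, *Trim30a*, *Parp14*, *Ifi35*, *Xaf1*, *Sp100* and *Phf11b*) and none a higher one, whereas 8.91% of all genes were lower at that p. In 8 genes (20.5%: *Stat2*, *Ifit3*, *Herc6*, *Trim25*, *Trim30a*, *Parp14*, *Sp100* and *Phf11b*) every CD4IKK1 library was below every CD4cre library, against 8.44% of all genes. DESeq2 gave an adjusted p for 24 of the 44 genes and called 3 of them lower, *Stat2* (log2 fold change -1.47, adjusted p = 0.0168), *Trim30a* (-2.64, adjusted p = 0.0304) and *Parp14* (-2.16, adjusted p = 0.0372), against 4.41% of all genes with an adjusted p. Without CD4IKK1 replicates 1 and 2 the median was -0.72, and with the T cell marker score as a covariate it was -0.22. *Usp18*, *Rsad2*, *Dhx58*, *Dtx3l* and *Oas1g* did not pass the filter of this comparison. These values use the same CD4cre libraries as the comparison with CD4NIK.

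**Figure D3:**
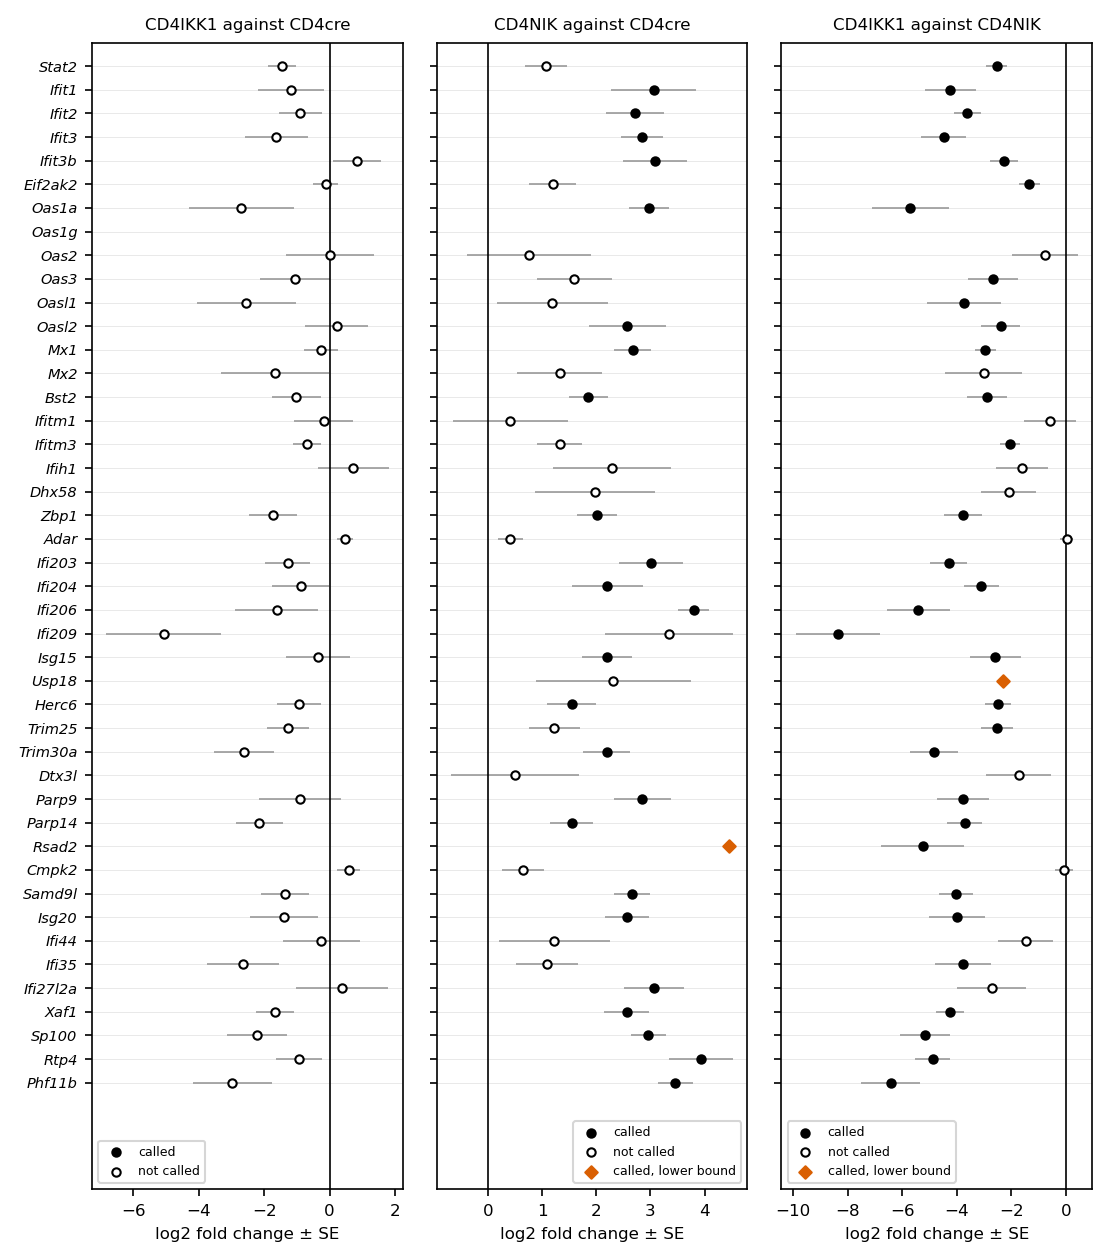
The log2 fold change (x axis, with its SE) is shown for each interferon-stimulated gene (y axis) in the 3 comparisons, as the first group against the second; filled points are called, open points are not, and diamonds are lower bounds where 1 group had 0 counts throughout. In the middle panel all points lie right of 0, in the right panel all but *Adar* lie left of it, and in the left panel no point is filled.

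**Figure D4:**
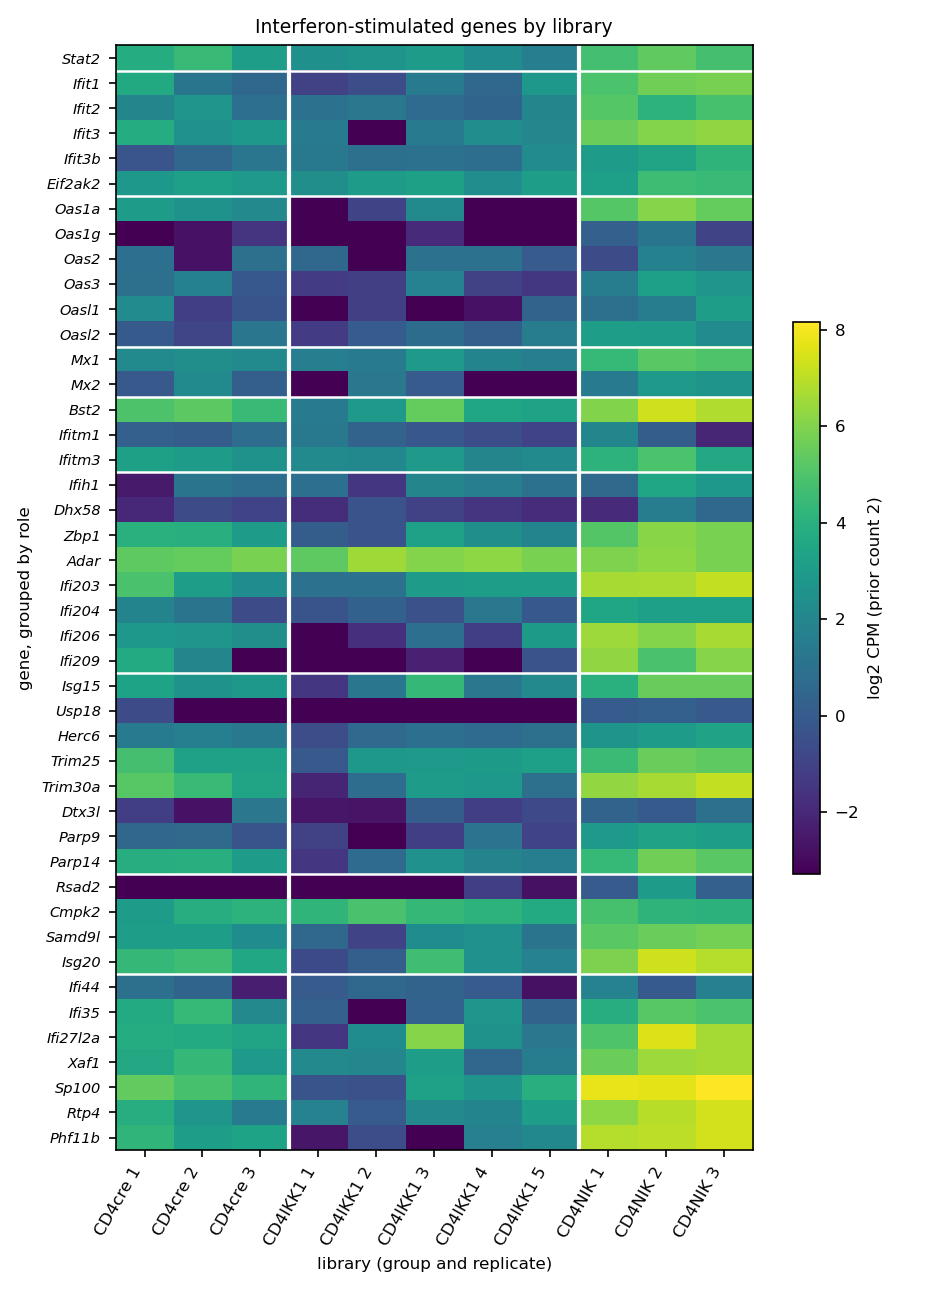
Colours give the log2 CPM (prior count of 2) of each of the 44 genes (rows, grouped by role with white lines between groups) in each of the 11 libraries (columns, grouped as CD4cre, CD4IKK1 and CD4NIK). Most rows are brightest in the 3 CD4NIK columns, while *Adar* and *Cmpk2* show similar colours in all groups.

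*Stat2* (chr10:128106352-128128735 on GRCm39), the transducer of the list, was examined first, and log2 fold changes are given with their SE from here on. *Stat2* was at 14.0, 22.4 and 8.71 CPM in CD4cre, at 5.44, 6.08, 8.05, 4.77 and 3.01 CPM in CD4IKK1 and at 26.6, 41.3 and 27.9 CPM in CD4NIK. For *Stat2*, the CD4NIK libraries overlapped with neither other group and were the higher ones. *Stat2* had a log2 fold change of 1.07 ± 0.39 (FDR = 0.0802, not called) against CD4cre and of -2.54 ± 0.37 (FDR = 0.000276) for CD4IKK1 against CD4NIK. The CD4IKK1 libraries were also below all CD4cre libraries.

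The IFIT proteins bind foreign RNA and hold back its translation, and their genes lie next to each other on chromosome 19, *Ifit3* at chr19:34560899-34566443 and *Ifit3b* at chr19:34585328-34590801 (GRCm39). *Ifit1* reached 30.5, 51.2 and 56.7 CPM in CD4NIK, against 12.9, 2.14 and 1.35 CPM in CD4cre and 0.384, 0.576, 2.72, 1.39 and 7.01 CPM in CD4IKK1. For *Ifit1*, no CD4cre or CD4IKK1 library came up to the lowest CD4NIK library. *Ifit1* had a log2 fold change of 3.06 ± 0.79 (FDR = 0.0304) against CD4cre and of -4.24 ± 0.94 (FDR = 0.00406) for CD4IKK1 against CD4NIK. *Ifit2* measured 3.89, 6.56 and 1.75 CPM in the CD4cre libraries, 1.92, 2.36, 1.53, 1.24 and 3.87 CPM in those labelled CD4IKK1 and 35.6, 17.1 and 28.5 CPM in those labelled CD4NIK. For *Ifit2*, all CD4NIK libraries lay above the libraries of both other groups. *Ifit2* had a log2 fold change of 2.72 ± 0.53 (FDR = 0.0155) against CD4cre and of -3.62 ± 0.50 (FDR = 0.000204) for CD4IKK1 against CD4NIK. *Ifit3* had 13.7, 5.64 and 6.91 CPM in CD4cre, 2.62, 0, 2.55, 4.96 and 3.96 CPM in CD4IKK1 and 47.6, 65.9 and 77.1 CPM in CD4NIK. For *Ifit3*, the CD4NIK libraries overlapped with neither other group and were the higher ones. *Ifit3* had a log2 fold change of 2.84 ± 0.39 (FDR = 0.00484) against CD4cre and of -4.48 ± 0.83 (FDR = 0.00147) for CD4IKK1 against CD4NIK. *Ifit3b* was at 0.731, 1.31 and 2.20 CPM in CD4cre, at 2.43, 1.83, 1.93, 1.74 and 4.63 CPM in CD4IKK1 and at 8.15, 10.4 and 18.1 CPM in CD4NIK. For *Ifit3b*, no CD4cre or CD4IKK1 library came up to the lowest CD4NIK library. *Ifit3b* had a log2 fold change of 3.09 ± 0.59 (FDR = 0.0143) against CD4cre and of -2.27 ± 0.52 (FDR = 0.00412) for CD4IKK1 against CD4NIK. *Ifit3* and *Ifit3b* share reads, which the counting program assigns by stretches of 31 bases: 57.8% of the 31-base words of *Ifit3b* transcripts also occur in *Ifit3*, so their separate values are uncertain. *Eif2ak2*, which encodes the RNA-dependent kinase PKR, reached 8.98, 24.4 and 21.6 CPM in CD4NIK, against 7.08, 8.99 and 7.56 CPM in CD4cre and 5.12, 8.12, 9.36, 5.01 and 8.41 CPM in CD4IKK1. For *Eif2ak2*, CD4NIK overlapped with both other groups. *Eif2ak2* had a log2 fold change of 1.19 ± 0.43 (FDR = 0.0764, not called) against CD4cre and of -1.34 ± 0.38 (FDR = 0.0127) for CD4IKK1 against CD4NIK.

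The OAS enzymes make oligoadenylates that activate RNase L. *Oas1a* measured 8.16, 6.03 and 4.15 CPM in the CD4cre libraries, 0, 0.419, 4.31, 0 and 0 CPM in those labelled CD4IKK1 and 35.04, 67.5 and 44.4 CPM in those labelled CD4NIK. For *Oas1a*, the CD4NIK libraries overlapped with neither other group and were the higher ones. *Oas1a* had a log2 fold change of 2.98 ± 0.37 (FDR = 0.00401) against CD4cre and of -5.70 ± 1.42 (FDR = 0.00907) for CD4IKK1 against CD4NIK. *Oas1g* did not pass the expression filter of any of the 3 comparisons, with 0, 1 and 5 counts in CD4cre, 0, 0, 3, 0 and 0 in CD4IKK1 and 19, 44 and 6 in CD4NIK, and 60.02% of its 31-base words also occur in *Oas1a*. All 3 CD4NIK libraries had more *Oas1g* counts than any other library. Where it was tested under other settings of CD4IKK1 against CD4NIK it was called lower: by DESeq2 (adjusted p = 0.0105), with a filter of 1 count (edgeR FDR = 0.0461) and in 4 fits that left out 1 library each (FDR from 0.0261 to 0.0478). Under the same settings it was not called in CD4NIK against CD4cre, with an adjusted p of 0.0537 by DESeq2 and an edgeR FDR from 0.0890 to 0.213. *Oas3* had 1.85, 3.31 and 0.801 CPM in CD4cre, 0.320, 0.367, 3.40, 0.397 and 0.270 CPM in CD4IKK1 and 2.85, 9.09 and 6.41 CPM in CD4NIK. For *Oas3*, CD4NIK overlapped with both other groups. *Oas3* had a log2 fold change of 1.60 ± 0.70 (FDR = 0.135, not called) against CD4cre and of -2.68 ± 0.92 (FDR = 0.0323) for CD4IKK1 against CD4NIK. This call of *Oas3* held in 5 of 11 fits with 1 library left out. *Oasl1* was at 4.66, 0.340 and 0.701 CPM in CD4cre, at 0, 0.367, 0, 0.0496 and 1.17 CPM in CD4IKK1 and at 1.84, 2.90 and 8.46 CPM in CD4NIK. For *Oasl1*, CD4NIK overlapped with CD4cre and lay above every CD4IKK1 library. *Oasl1* had a log2 fold change of 1.19 ± 1.03 (FDR = 0.435, not called) against CD4cre and of -3.73 ± 1.35 (FDR = 0.0409) for CD4IKK1 against CD4NIK. The CD4IKK1 call of *Oasl1* also held in 5 of 11 such fits. *Oasl2* reached 8.82, 8.01 and 4.58 CPM in CD4NIK, against 0.885, 0.437 and 2.20 CPM in CD4cre and 0.320, 0.943, 1.59, 1.04 and 2.88 CPM in CD4IKK1. For *Oasl2*, the CD4NIK libraries overlapped with neither other group and were the higher ones. *Oasl2* had a log2 fold change of 2.58 ± 0.71 (FDR = 0.0375) against CD4cre and of -2.38 ± 0.72 (FDR = 0.0179) for CD4IKK1 against CD4NIK. *Oas2* was called in no comparison and ranged from 0.0486 to 1.80 CPM in CD4cre, from 0 to 1.93 CPM in CD4IKK1 and from 0.558 to 3.29 CPM in CD4NIK.

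The MX proteins are dynamin-like GTPases that trap viral nucleocapsids, although the *Mx1* allele of C57BL/6 mice lacks coding exons. *Mx1* measured 4.35, 5.15 and 4.56 CPM in the CD4cre libraries, 2.94, 2.67, 7.32, 3.62 and 3.01 CPM in those labelled CD4IKK1 and 21.0, 38.2 and 32.1 CPM in those labelled CD4NIK. For *Mx1*, no CD4cre or CD4IKK1 library came up to the lowest CD4NIK library. *Mx1* had a log2 fold change of 2.67 ± 0.34 (FDR = 0.00405) against CD4cre and of -2.95 ± 0.38 (FDR = 0.000158) for CD4IKK1 against CD4NIK. *Mx2* ranged from 0.847 to 4.37 CPM in CD4cre, from 0 to 2.36 CPM in CD4IKK1 and from 2.68 to 7.17 CPM in CD4NIK and was not called. Among the membrane restriction factors, *Bst2* encodes tetherin, which holds budding virus at the cell surface. *Bst2* had 31.6, 38.6 and 21.5 CPM in CD4cre, 2.56, 7.13, 44.5, 11.4 and 9.94 CPM in CD4IKK1 and 63.2, 161 and 113 CPM in CD4NIK. For *Bst2*, all CD4NIK libraries lay above the libraries of both other groups. *Bst2* had a log2 fold change of 1.85 ± 0.36 (FDR = 0.0154) against CD4cre and of -2.90 ± 0.72 (FDR = 0.00869) for CD4IKK1 against CD4NIK. CD4IKK1 replicate 3 was above all CD4cre libraries for this gene. *Ifitm3*, which blocks the entry of viruses from endosomes, was at 9.35, 8.12 and 5.86 CPM in CD4cre, at 4.42, 4.03, 7.20, 3.72 and 4.54 CPM in CD4IKK1 and at 17.2, 30.0 and 12.2 CPM in CD4NIK. For *Ifitm3*, the CD4NIK libraries overlapped with neither other group and were the higher ones. *Ifitm3* had a log2 fold change of 1.33 ± 0.42 (FDR = 0.0530, not called) against CD4cre and of -2.04 ± 0.38 (FDR = 0.00104) for CD4IKK1 against CD4NIK. Its 31-base words occurred in other genes to 61.7%, so its reads are shared. *Ifitm1* was at 0.972 to 1.65 CPM in CD4cre, 0.405 to 2.43 CPM in CD4IKK1 and 0.141 to 3.85 CPM in CD4NIK, was not called, and changed the sign of its difference between CD4NIK and CD4cre without CD4NIK replicate 1.

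The nucleic acid sensors include *Zbp1*, a sensor of Z-form nucleic acids that can start necroptosis. *Zbp1* reached 34.0, 70.6 and 59.1 CPM in CD4NIK, against 15.97, 15.5 and 8.26 CPM in CD4cre and 0.960, 0.681, 9.53, 5.26 and 3.55 CPM in CD4IKK1. For *Zbp1*, no CD4cre or CD4IKK1 library came up to the lowest CD4NIK library. *Zbp1* had a log2 fold change of 2.02 ± 0.37 (FDR = 0.0120) against CD4cre and of -3.77 ± 0.69 (FDR = 0.00120) for CD4IKK1 against CD4NIK. The *Ifi203*, *Ifi204*, *Ifi206* and *Ifi209* genes belong to the AIM2-like receptors of chromosome 1, *Ifi206* at chr1:173296051-173318873 and *Ifi203* at chr1:173747971-173770436 (GRCm39). *Ifi203* measured 29.2, 8.46 and 4.86 CPM in the CD4cre libraries, 1.92, 1.89, 8.17, 8.79 and 8.32 CPM in those labelled CD4IKK1 and 103, 105 and 138 CPM in those labelled CD4NIK. For *Ifi203*, all CD4NIK libraries lay above the libraries of both other groups. *Ifi203* had a log2 fold change of 3.01 ± 0.60 (FDR = 0.0159) against CD4cre and of -4.30 ± 0.66 (FDR = 0.000531) for CD4IKK1 against CD4NIK. *Ifi204* had 3.54, 2.09 and 0.551 CPM in CD4cre, 0.704, 1.10, 0.624, 2.33 and 0.809 CPM in CD4IKK1 and 10.8, 9.09 and 9.09 CPM in CD4NIK. For *Ifi204*, the CD4NIK libraries overlapped with neither other group and were the higher ones. *Ifi204* had a log2 fold change of 2.21 ± 0.66 (FDR = 0.0462) against CD4cre and of -3.10 ± 0.64 (FDR = 0.00215) for CD4IKK1 against CD4NIK. *Ifi206* was at 7.01, 6.27 and 5.16 CPM in CD4cre, at 0, 0.210, 1.76, 0.347 and 7.60 CPM in CD4IKK1 and at 91.1, 65.5 and 103 CPM in CD4NIK. For *Ifi206*, no CD4cre or CD4IKK1 library came up to the lowest CD4NIK library. *Ifi206* had a log2 fold change of 3.80 ± 0.28 (FDR = 0.00150) against CD4cre and of -5.41 ± 1.16 (FDR = 0.00426) for CD4IKK1 against CD4NIK. *Ifi209* reached 76.5, 29.8 and 68.0 CPM in CD4NIK, against 13.3, 3.69 and 0 CPM in CD4cre and 0, 0, 0.113, 0 and 0.674 CPM in CD4IKK1. For *Ifi209*, all CD4NIK libraries lay above the libraries of both other groups. *Ifi209* had a log2 fold change of 3.35 ± 1.17 (FDR = 0.0736, not called) against CD4cre and of -8.35 ± 1.56 (FDR = 0.00194) for CD4IKK1 against CD4NIK. These 4 genes shared from 25.5% to 47.5% of their 31-base words with other genes, mostly of the same cluster. *Ifih1*, which encodes the RNA sensor MDA5, ranged from 0.0770 to 2.09 CPM in CD4cre, from 0.262 to 3.69 CPM in CD4IKK1 and from 1.51 to 11.0 CPM in CD4NIK. *Dhx58*, which encodes LGP2, ranged from 0.154 to 0.535, from 0.180 to 0.681 and from 0.167 to 2.85 CPM. Neither was called. *Adar*, the gene of an RNA editing enzyme, measured 40.8, 44.7 and 59.1 CPM in the CD4cre libraries, 39.9, 93.8, 65.7, 75.3 and 58.9 CPM in those labelled CD4IKK1 and 62.3, 74.5 and 59.3 CPM in those labelled CD4NIK. Its log2 fold change was 0.42 ± 0.23 (FDR = 0.220) for CD4NIK against CD4cre, with no overlap, and 0.04 ± 0.24 (FDR = 0.922) for CD4IKK1 against CD4NIK, with overlap and a sign that flipped with RLE factors.

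*Isg15* encodes the ubiquitin-like protein that is attached to other proteins during the response. *Isg15* had 10.1, 5.78 and 7.01 CPM in CD4cre, 0.256, 2.25, 20.5, 2.38 and 4.23 CPM in CD4IKK1 and 15.6, 45.7 and 45.7 CPM in CD4NIK. For *Isg15*, CD4NIK lay above every CD4cre library and overlapped with CD4IKK1. *Isg15* had a log2 fold change of 2.20 ± 0.46 (FDR = 0.0180) against CD4cre and of -2.59 ± 0.93 (FDR = 0.0431) for CD4IKK1 against CD4NIK. The call against CD4cre held in 2 of 6 fits with 1 library left out, and that of CD4IKK1 against CD4NIK in 3 of 11. Of its 31-base words, 33.4% also occur in other genes. CD4IKK1 replicate 3, at 20.5 CPM, was above every CD4cre library and above CD4NIK replicate 1, and without CD4IKK1 replicates 1 and 2 the sign of the difference between CD4IKK1 and CD4cre flipped. *Usp18*, whose product removes ISG15 and restrains the receptor, had 14, 0 and 0 counts in CD4cre, 0 counts in all 5 CD4IKK1 libraries and 17, 22 and 12 counts in CD4NIK. It was called lower in CD4IKK1 than in CD4NIK (FDR = 0.0179) and was at least 4.99-fold lower when set against the floor of 3 counts per library. *Herc6*, the main ISG15 ligase gene of mice, was at 2.62, 3.11 and 2.45 CPM in CD4cre, at 0.576, 1.47, 1.76, 1.54 and 1.80 CPM in CD4IKK1 and at 6.25, 8.21 and 9.80 CPM in CD4NIK. For *Herc6*, all CD4NIK libraries lay above the libraries of both other groups. *Herc6* had a log2 fold change of 1.55 ± 0.45 (FDR = 0.0435) against CD4cre and of -2.49 ± 0.49 (FDR = 0.00157) for CD4IKK1 against CD4NIK.

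The TRIM family members of the list are ubiquitin ligases. *Trim25*, which acts on RIG-I signalling, reached 23.3, 47.3 and 39.8 CPM in CD4NIK, against 27.3, 9.62 and 9.71 CPM in CD4cre and 0.832, 7.02, 7.32, 7.74 and 9.13 CPM in CD4IKK1. For *Trim25*, CD4NIK overlapped with CD4cre and lay above every CD4IKK1 library. *Trim25* had a log2 fold change of 1.22 ± 0.47 (FDR = 0.0944, not called) against CD4cre and of -2.51 ± 0.58 (FDR = 0.00414) for CD4IKK1 against CD4NIK. *Trim30a*, which restrains NFκB activation downstream of Toll-like receptors, measured 36.9, 21.5 and 10.6 CPM in the CD4cre libraries, 0.128, 1.68, 8.00, 7.00 and 1.84 CPM in those labelled CD4IKK1 and 78.7, 104 and 138 CPM in those labelled CD4NIK. For *Trim30a*, no CD4cre or CD4IKK1 library came up to the lowest CD4NIK library. *Trim30a* had a log2 fold change of 2.20 ± 0.43 (FDR = 0.0156) against CD4cre and of -4.83 ± 0.87 (FDR = 0.00153) for CD4IKK1 against CD4NIK. The CD4IKK1 libraries were below all CD4cre libraries for both genes. *Parp9* and *Dtx3l* form an ADP-ribosylation and ubiquitin ligase complex and lie head to head on chromosome 16, *Parp9* at chr16:35758840-35792980 and *Dtx3l* at chr16:35746881-35759521 (GRCm39), with overlapping ends, where reads cannot be given to 1 gene unless strand was counted. *Parp9* had 1.31, 1.51 and 0.701 CPM in CD4cre, 0.384, 0, 0.340, 1.99 and 0.405 CPM in CD4IKK1 and 7.42, 9.93 and 8.53 CPM in CD4NIK. For *Parp9*, all CD4NIK libraries lay above the libraries of both other groups. *Parp9* had a log2 fold change of 2.85 ± 0.53 (FDR = 0.0124) against CD4cre and of -3.77 ± 0.95 (FDR = 0.00698) for CD4IKK1 against CD4NIK. *Dtx3l* had 9, 1 and 46 counts in CD4cre, 1, 1, 17, 7 and 11 in CD4IKK1 and 21, 18 and 26 in CD4NIK, was not called, and flipped its sign between CD4NIK and CD4cre without CD4cre replicate 2. *Parp14*, a mono-ADP-ribosyltransferase, was at 14.3, 14.7 and 8.06 CPM in CD4cre, at 0.256, 1.57, 5.56, 3.52 and 3.01 CPM in CD4IKK1 and at 21.0, 51.0 and 38.1 CPM in CD4NIK. For *Parp14*, the CD4NIK libraries overlapped with neither other group and were the higher ones. *Parp14* had a log2 fold change of 1.55 ± 0.39 (FDR = 0.0296) against CD4cre and of -3.71 ± 0.64 (FDR = 0.000694) for CD4IKK1 against CD4NIK.

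*Rsad2* encodes viperin, which makes a chain-terminating nucleotide. It was at 0 in each of the 3 CD4cre libraries, with 0, 0, 0, 7 and 1 counts in CD4IKK1 and 16, 162 and 15 counts in CD4NIK. Its CD4NIK libraries lay above all others, and it was at least 22.0-fold higher in CD4NIK than the floor of 3 counts per library allows for CD4cre (FDR = 0.0224). CD4NIK replicate 2 carried most of this, and without it the bound was 6.49-fold. For CD4IKK1 against CD4NIK its log2 fold change was -5.25 ± 1.51 (FDR = 0.0174). *Cmpk2*, a mitochondrial nucleotide kinase gene beside *Rsad2* on chromosome 12, was examined beside it. *Cmpk2* reached 28.6, 17.9 and 16.6 CPM in CD4NIK, against 8.20, 14.5 and 17.1 CPM in CD4cre and 18.7, 29.7, 20.5, 17.5 and 12.9 CPM in CD4IKK1. It overlapped between all groups, with a log2 fold change of 0.64 ± 0.39 (FDR = 0.266) for CD4NIK against CD4cre and of -0.07 ± 0.34 (FDR = 0.884) for CD4IKK1 against CD4NIK, and the latter sign flipped with upper-quartile or no factors. *Samd9l* measured 8.43, 8.55 and 4.81 CPM in the CD4cre libraries, 1.41, 0.419, 4.76, 5.56 and 2.07 CPM in those labelled CD4IKK1 and 38.1, 46.6 and 55.1 CPM in those labelled CD4NIK. For *Samd9l*, all CD4NIK libraries lay above the libraries of both other groups. *Samd9l* had a log2 fold change of 2.66 ± 0.33 (FDR = 0.00357) against CD4cre and of -4.03 ± 0.61 (FDR = 0.000326) for CD4IKK1 against CD4NIK. *Isg20*, an RNA exonuclease gene, had 20.02, 24.7 and 11.6 CPM in CD4cre, 0.512, 1.05, 25.1, 5.56 and 3.42 CPM in CD4IKK1 and 60.1, 161 and 117 CPM in CD4NIK. For *Isg20*, the CD4NIK libraries overlapped with neither other group and were the higher ones. *Isg20* had a log2 fold change of 2.57 ± 0.41 (FDR = 0.00817) against CD4cre and of -3.99 ± 1.02 (FDR = 0.0110) for CD4IKK1 against CD4NIK. CD4IKK1 replicate 3 was above all CD4cre libraries for *Isg20*.

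The remaining genes have varied roles. *Ifi27l2a* was at 13.8, 13.2 and 10.4 CPM in CD4cre, at 0.256, 4.72, 67.3, 6.01 and 2.38 CPM in CD4IKK1 and at 31.9, 187 and 98.6 CPM in CD4NIK. For *Ifi27l2a*, CD4NIK lay above every CD4cre library and overlapped with CD4IKK1. *Ifi27l2a* had a log2 fold change of 3.06 ± 0.56 (FDR = 0.0120) against CD4cre and of -2.72 ± 1.27 (FDR = 0.117, not called) for CD4IKK1 against CD4NIK. CD4IKK1 replicate 3, at 67.3 CPM, was far above the other 4 libraries of its group, which had 0.256 to 6.01 CPM. *Xaf1* reached 48.9, 90.7 and 98.4 CPM in CD4NIK, against 12.2, 20.1 and 7.51 CPM in CD4cre and 4.16, 3.93, 8.79, 1.29 and 2.79 CPM in CD4IKK1. For *Xaf1*, all CD4NIK libraries lay above the libraries of both other groups. *Xaf1* had a log2 fold change of 2.56 ± 0.42 (FDR = 0.00853) against CD4cre and of -4.24 ± 0.52 (FDR = 0.000127) for CD4IKK1 against CD4NIK. *Sp100* measured 43.4, 28.5 and 18.6 CPM in the CD4cre libraries, 0.704, 0.629, 9.64, 6.25 and 15.3 CPM in those labelled CD4IKK1 and 219, 205 and 289 CPM in those labelled CD4NIK. For *Sp100*, the CD4NIK libraries overlapped with neither other group and were the higher ones. *Sp100* had a log2 fold change of 2.96 ± 0.33 (FDR = 0.00255) against CD4cre and of -5.18 ± 0.91 (FDR = 0.00164) for CD4IKK1 against CD4NIK. *Rtp4*, a chaperone gene for receptors at the cell surface, had 14.4, 6.51 and 2.70 CPM in CD4cre, 3.39, 0.891, 4.20, 3.57 and 8.45 CPM in CD4IKK1 and 75.0, 124 and 168 CPM in CD4NIK. For *Rtp4*, no CD4cre or CD4IKK1 library came up to the lowest CD4NIK library. *Rtp4* had a log2 fold change of 3.94 ± 0.59 (FDR = 0.00682) against CD4cre and of -4.89 ± 0.65 (FDR = 0.000248) for CD4IKK1 against CD4NIK. *Phf11b* was at 18.2, 8.85 and 10.3 CPM in CD4cre, at 0.0640, 0.576, 0, 3.13 and 4.05 CPM in CD4IKK1 and at 119.7, 129.6 and 167 CPM in CD4NIK. For *Phf11b*, all CD4NIK libraries lay above the libraries of both other groups. *Phf11b* had a log2 fold change of 3.46 ± 0.33 (FDR = 0.00191) against CD4cre and of -6.43 ± 1.07 (FDR = 0.00112) for CD4IKK1 against CD4NIK. *Phf11b* shared 59.5% of its 31-base words with other genes, *Phf11a* above all. *Ifi35* reached 14.6, 37.1 and 30.5 CPM in CD4NIK, against 12.9, 20.8 and 4.20 CPM in CD4cre and 1.09, 0, 1.13, 6.65 and 1.17 CPM in CD4IKK1. For *Ifi35*, CD4NIK overlapped with CD4cre and lay above every CD4IKK1 library. *Ifi35* had a log2 fold change of 1.10 ± 0.57 (FDR = 0.201, not called) against CD4cre and of -3.76 ± 1.03 (FDR = 0.0124) for CD4IKK1 against CD4NIK. *Ifi44* ranged from 0.100 to 1.81 CPM in CD4cre, from 0.0450 to 1.36 CPM in CD4IKK1 and from 0.885 to 3.35 CPM in CD4NIK and was not called.

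Within CD4IKK1 the genes did not vary evenly across libraries. Of 43 genes with a count in any CD4IKK1 library, 18 were highest in replicate 3, 12 in replicate 5, 7 in replicate 4, 5 in replicate 2 and 1 in replicate 1. The lowest value of the group was in replicate 1 or 2, ties included, for 30 of the 43, and these were also the libraries with the fewest T cell receptor counts. The part of T cell RNA in this order was not tested. At 0 counts were 8 genes in replicate 1, 8 in replicate 2, 4 in replicate 3, 5 in replicate 4 and 4 in replicate 5. More than 3 counts in every library of the group were found for 27 genes in CD4IKK1, 36 in CD4cre and 42 in CD4NIK.

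The other genes of the interferon pathway were taken from a list of 49 symbols, 47 of which were in the table. Of these, 12 were called higher and none lower in CD4NIK than in CD4cre among 22 tested, against 10.4% of all genes called higher. In CD4IKK1, edgeR called 17 lower and none higher than in CD4NIK among 26 tested, against 18.5% of all genes called lower. DESeq2 called 21 of the 28 with an adjusted p lower in this comparison, against 20.2% of all genes, and 1 higher. The latter was *Tlr3*, at 2.99 against 0.428 CPM (DESeq2 log2 fold change 2.71, adjusted p = 0.0234), with no overlap. None of 23 tested was called by edgeR between CD4IKK1 and CD4cre. At an unadjusted p under 0.05, 9 of the 23 had lower values, against 8.91% of all genes, and 1 (*Jak2*) had a higher one. DESeq2 called 5 of the 20 with an adjusted p lower in CD4IKK1 than in CD4cre, against 4.41% of all genes: *Ifngr1* (log2 fold change -2.50, adjusted p = 0.000571), *Irf3* (-1.56, adjusted p = 0.00403), *Ikbke* (-2.39, adjusted p = 0.0162), *Socs1* (-2.41, adjusted p = 0.0263) and *Jak1* (-1.12, adjusted p = 0.0426). The 20 type I and type III interferon genes had few counts, and 15 of them had no more than 3 counts in any library of CD4NIK or CD4cre. *Ifnb1*, which encodes interferon beta, had 49, 0 and 3 counts in CD4cre, 0, 2, 0, 0 and 25 in CD4IKK1 and 0, 0 and 37 in CD4NIK, so that 1 library of each group held nearly all of them. *Ifnz*, which encodes interferon zeta and was chosen here after its values were seen, had 5, 0 and 0 counts in CD4cre, 0 in all 5 CD4IKK1 libraries and 0, 45 and 31 in CD4NIK. It did not pass edgeR's filter, DESeq2 gave an adjusted p of 0.0219 for CD4IKK1 against CD4NIK and of 0.0783 for CD4NIK against CD4cre, and the CD4NIK libraries overlapped with both other groups at 0. *Ifng* measured 364, 135 and 109.6 CPM in the CD4cre libraries, 0, 1.99, 32.4, 35.5 and 53.1 CPM in those labelled CD4IKK1 and 887, 768 and 1067 CPM in those labelled CD4NIK. For *Ifng*, no CD4cre or CD4IKK1 library came up to the lowest CD4NIK library. *Ifng* had a log2 fold change of 2.15 ± 0.43 (FDR = 0.0165) against CD4cre and of -5.20 ± 1.28 (FDR = 0.00950) for CD4IKK1 against CD4NIK.

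Among the receptors, *Ifnar1* was at 10.4 to 20.3 CPM in CD4cre, 2.72 to 14.8 CPM in CD4IKK1 and 39.8 to 63.5 CPM in CD4NIK, *Ifnar2* at 38.9 to 54.5, 16.8 to 28.9 and 69.1 to 119.7 CPM, and *Ifngr1* at 49.5 to 99.8, 4.16 to 27.9 and 177 to 304 CPM. These 3 were called in both comparisons with CD4NIK. *Ifngr2* went the other way, from 175 to 189.8 CPM in CD4cre and 162 to 213 CPM in CD4IKK1 to 101 to 128 CPM in CD4NIK, with no overlap, but by less than 2-fold (log2 fold change -0.65 ± 0.18, FDR = 0.0381 against CD4cre, and 0.73 ± 0.14, FDR = 0.00106 for CD4IKK1 against CD4NIK). *Il10rb*, shared with the type III receptor, was called lower in CD4IKK1 than in CD4NIK, at 0.314 to 3.72 against 2.18 to 17.2 CPM. *Jak1*, at 16.4 to 44.8, 8.59 to 19.0 and 61.8 to 116 CPM in CD4cre, CD4IKK1 and CD4NIK, was called in both comparisons with CD4NIK. *Tyk2* ranged from 2.97 to 22.0 CPM in CD4IKK1 and from 40.2 to 53.7 CPM in CD4NIK and was called lower in CD4IKK1.

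*Irf9*, the DNA-binding component of ISGF3, had 22.0, 14.9 and 9.71 CPM in CD4cre, 0.960, 1.62, 6.98, 11.9 and 8.05 CPM in CD4IKK1 and 99.3, 126 and 140.5 CPM in CD4NIK. For *Irf9*, all CD4NIK libraries lay above the libraries of both other groups. *Irf9* had a log2 fold change of 2.96 ± 0.32 (FDR = 0.00255) against CD4cre and of -4.36 ± 0.67 (FDR = 0.000528) for CD4IKK1 against CD4NIK. Of the regulators upstream of interferon, *Irf7* was at 25.8 to 35.5, 0.419 to 21.3 and 112 to 147 CPM, *Irf3* at 33.6 to 63.7, 8.19 to 23.2 and 128 to 181 CPM, and *Sting1*, the adaptor of cytosolic DNA sensing, at 24.7 to 63.7, 0 to 9.76 and 215 to 305 CPM in CD4cre, CD4IKK1 and CD4NIK. *Myd88* was at 16.9 to 46.3, 2.15 to 17.6 and 80.1 to 114 CPM, and *Tbk1* at 21.4 to 41.0, 19.6 to 34.0 and 55.3 to 75.0 CPM. These 5 genes were called in both comparisons with CD4NIK. *Tlr7*, at 0 to 0.149 CPM in CD4IKK1 and 0.846 to 5.24 CPM in CD4NIK, was called lower in CD4IKK1. Among the negative regulators, *Ptpn6*, at 2.30 to 17.1, 0 to 4.81 and 56.1 to 129 CPM, was called in both comparisons. *Socs1*, at 6.02 to 58.0 against 229 to 333 CPM, and *Socs3*, at 2.11 to 81.7 against 227 to 394 CPM, were called lower in CD4IKK1 than in CD4NIK. *Ifng* and *Ptpn6* are expressed mainly in leukocytes, and the T cell markers moved in the same direction in these libraries; their part in these differences was not tested.

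**Figure D5:**
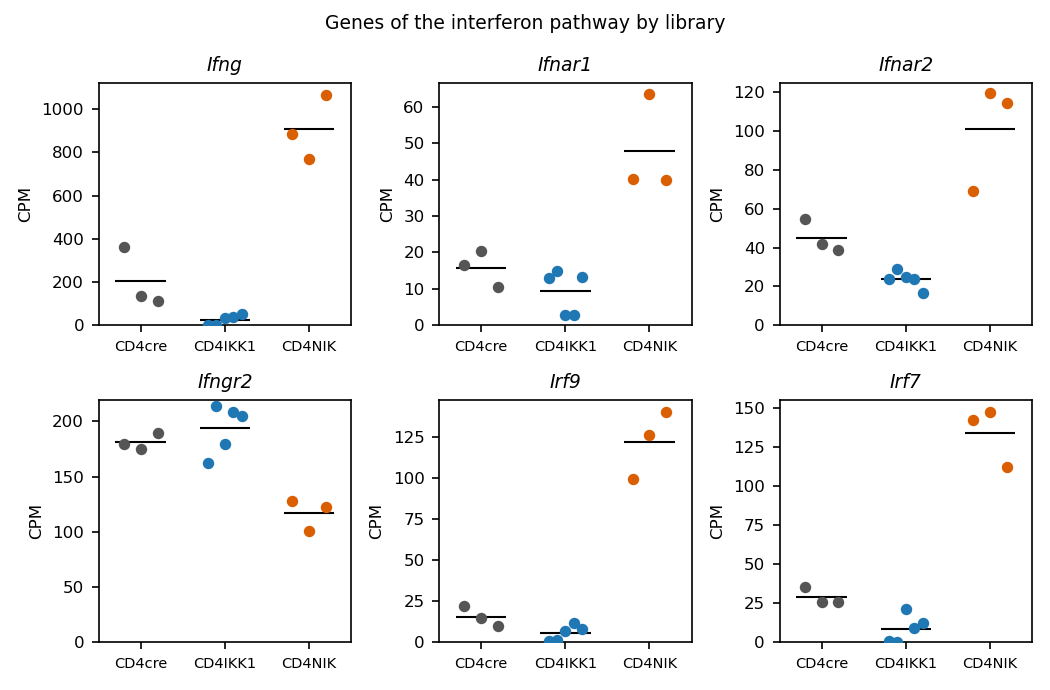
Each panel gives the CPM (y axis, linear from 0) of 1 gene of the interferon pathway in each library (points) by group (x axis), with the group mean as a line. For *Ifng*, *Ifnar1*, *Ifnar2*, *Irf9* and *Irf7* the 3 CD4NIK points lie above all others, and for *Ifngr2* below them.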

How the data were processed

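RNA of CD4+ T cells, enriched from kidneys with magnetic beads and sorted by flow cytometry, was amplified with a SMARTer kit and sequenced, with 1 library per sample and 11 libraries in all. The deposited values are estimated counts, which the authors made by trimming reads with Trimmomatic and assigning them with kallisto, whose version is not given in the sources used here; they are listed per gene symbol and library and are not normalized. The study's methods name GRCm39 and the submitters' processing notes mm10 as the build. Of all values of a library, 35.3% to 41.8% were not whole. kallisto divides reads shared by similar transcripts, so the share of 31-base words that occur in other genes was computed from GENCODE transcripts. The labels give no batch or date, and the study's methods say that the groups were handled in parallel. The depths given here are totals of the deposited counts, not of the reads.

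For the tests, the deposited estimates were rounded. Library totals were 15751632 to 25737046, and 3 counts were taken as the floor. edgeR 4.0.16 (R 4.3.3) with TMM factors (0.901 to 1.05), its expression filter and the robust quasi-likelihood test was fitted on all genes of each comparison (CD4IKK1 against CD4NIK in a fit of all 11 libraries), with Benjamini-Hochberg adjustment over all genes tested. A gene was called at an FDR under 0.05 and a difference of more than 2-fold. The tests were 2-sided and were tested on simulated data, in which 200 genes were given a log2 fold change of 2 in size. Of these, 36% were recovered in CD4IKK1 against CD4cre, 41.5% in CD4NIK against CD4cre and 40.5% in CD4IKK1 against CD4NIK. In the same order, 6, 8 and 6 unchanged genes were called. A gene that was not called may therefore still differ. CPM use TMM-scaled totals, a score is the mean over genes of log2 CPM, for which a prior count of 2 was added, and fold changes are given as the first group against the second with SE. Alternatives used RLE, upper-quartile or no factors, other filters, DESeq2 1.42.0, other sets of libraries, a replicate block and a T cell marker score as a covariate. None of 55 pairs of libraries held identical values. The members and gene lists were chosen with earlier results of these data known. Values in every library are given for members called in any comparison and for the member with the highest mean CPM of each role. They are also given for *Cmpk2*, *Oas1g* and *Dtx3l*, which were not called. Other members are given by range and counts. Of other genes, those of the pathway list called in any comparison, the highest of each pathway group and the targeted genes are named. *Ifnz*, *Ikbke*, *Jak2*, *Tlr3* and some cell type markers are named as well. The libraries of a group, which the labels call biological replicates, are as many as the mice the study counts for that group. The comparisons share libraries and are not independent of each other. A gene of the pathway list is not reported here and was left out of its counts.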

Additional observations from a re-analysis of the deposited data

Results flagged for a closer look

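In the 5 CD4IKK1 libraries, the lowest or highest log2 CPM of 45 items (43 genes with counts there and the scores of the interferon-stimulated genes and of the T cell markers) was compared with its nearest neighbour. In 8 genes this gap, as a part of the whole range of the group, passed Dixon's critical value of 0.71. Chance alone passes it in about 1 of 20 groups if values are normally distributed and not tied. Some genes here were tied at 0 counts, and all genes share their libraries. The number of 8 was therefore not compared with chance. Replicate 1 stood low for *Herc6* (0.814 of the range) and *Trim25* (0.887). Replicate 2, with 0 counts, stood low for *Ifit3* (0.834) and *Oas2* (0.763). Replicate 3 stood high for *Oas3* (0.869) and for *Oas1g* (1), which had 3 counts there and 0 in the rest. Replicate 4 stood high for *Rsad2* (0.754), with 7 counts. Replicate 5 stood low for *Ifi44* (0.832). *Oas1g* and *Rsad2* lie near the floor of 3 counts. Neither score passed the value. Groups of 3 libraries were not examined.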

How the results depend on the processing

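With the T cell marker score as a covariate, 6 genes were called in CD4NIK against CD4cre (median log2 fold change 1.18) and 0 in CD4IKK1 against CD4NIK (median -1.48), and the median of CD4IKK1 against CD4cre was -0.22. In CD4IKK1 against CD4NIK 4 of 43 log2 fold changes then reversed: *Isg15* (1.35) and *Isg20* (0.036), called by edgeR without the covariate, and *Ifi27l2a* (1.93) and *Dtx3l*, not called. In CD4IKK1 against CD4cre 10 of 39 reversed and in CD4NIK against CD4cre 2 of 43 (*Oasl1* and *Dtx3l*), none of them called. The groups do not overlap in the T cell marker score. DESeq2 called 3 genes in CD4IKK1 against CD4cre, where edgeR called 0. In CD4NIK against CD4cre, 9 genes were called with the other libraries in the fit (5.23% of all genes called higher), and 11 to 25 with each library left out in turn (3.80% to 10.7%). In CD4IKK1 against CD4NIK, 14 were called with a filter of 10 counts in every library, which tested fewer genes (16 members; 22.1% of all genes called lower), and 26 to 33 with each library left out in turn (13.7% to 18.9%). With the median over members in place of the mean, the score was 2.58 in CD4cre and 4.78 in CD4NIK. Among members called in either comparison, no sign changed when a library was left out; 48 of 150 calls in CD4NIK against CD4cre and 26 of 363 in CD4IKK1 against CD4NIK were then lost.

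The labels do not link replicate numbers across groups. Deviations of libraries with the same number correlated at -0.0889 to 0.0610, and those with different numbers at -0.0776 to 0.0905. With so few libraries per group, these values cannot show whether samples were paired. With the replicate block, 0, 20 and 28 genes were called in CD4IKK1 against CD4cre, CD4NIK against CD4cre and CD4IKK1 against CD4NIK, with medians of -1.46, 2.50 and -3.60, against 0.020% of all genes called, 6.54% called higher and 17.7% called lower.

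The median of all genes shifted by -0.133 in CD4NIK against CD4cre and by 0.245 in CD4IKK1 against CD4NIK with upper-quartile factors, and by -0.123 and 0.107 without factors; in CD4IKK1 against CD4cre it shifted by 0.0918 with upper-quartile factors. The share of all called genes that were higher went from 59.9% to 44.9% (upper-quartile) and 49.0% (no factors) in CD4NIK against CD4cre and from 44.3% to 55.5% (upper-quartile) in CD4IKK1 against CD4NIK. Genes with few counts are limited by depth, and 17 of 44 genes had 3 counts or fewer in at least 1 CD4IKK1 library.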
